A study of Rattus norvegicus with 9 samples.

Results

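A set of 8 genes, listed together as vascular smooth muscle and pericyte genes, was followed in 9 kidney RNA-sequencing libraries. The set was Acta2, Tagln, Myh11, Cnn1, Des, Vim, Pdgfrb and Pdgfra, of which some, such as Vim and Pdgfra, are not particular to these cells. The genes were taken by a fixed list of identifiers that paired each one with its symbol. All 8 of 8 were present among the 17862 listed features. The list was not drawn from the measured values by a threshold, but it was proposed with earlier results of these data known. All kidneys were sampled at 6 weeks of age, in 3 groups of 3: a normal group (WT), an untreated hypertensive group (Model) and a hypertensive group that received Qingda granule, a Chinese herbal medicine (QDG). The sources used here do not give the strain, the origin of the hypertension, or the dose and schedule of the granule. The labels put hypertension in both Model and QDG, and its part in a difference from WT cannot be told apart from that of strain or of handling. Nothing states that the samples of a group were separate animals, so the p-values describe sample-to-sample spread, some or all of which may be technical.

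Vessel walls hold mural cells. Vascular smooth muscle cells surround arteries and arterioles and contract through a smooth muscle myosin sliding on actin filaments, while pericytes, and mesangial cells in the kidney's filtering tufts, lie along smaller vessels. Differentiated smooth muscle is recognised by Acta2 (ENSMUSG00000035783, smooth muscle actin), Myh11 (ENSMUSG00000018830, smooth muscle myosin heavy chain), Cnn1 (ENSMUSG00000001349, calponin, an actin-binding protein that restrains the myosin motor) and Tagln (ENSMUSG00000032085, transgelin, an actin cross-linking protein). Pdgfrb (ENSMUSG00000024620) is the receptor through which platelet-derived growth factor recruits mural cells to growing vessels. It is found on pericytes, mesangial cells and smooth muscle, though not only on these. The related receptor Pdgfra (ENSMUSG00000029231) marks mainly interstitial fibroblasts. Des (ENSMUSG00000026208, desmin) and Vim (ENSMUSG00000026728, vimentin) are intermediate filament proteins, and Vim is also made by fibroblasts, endothelium, leukocytes and podocytes.

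Values are FPKM, reads scaled to feature length and library total. Levels of different genes are set side by side on that scale only. Library totals recovered from the value steps ran from 26.2 M to 31.4 M, and the median feature stood between 2.59 and 2.76 FPKM. The libraries differed more in summed FPKM, from 370527.5 in WT 3 to 489773.2 in Model 3. Listed features held 24.1 M of 31.4 M reads in WT 3 and 24.1 M of 26.8 M in Model 3. Features carried mouse identifiers although the labels name the rat, and the sources used here do not say which species the reads came from. How evenly reads were assigned to different genes is therefore not known, which limits comparisons of levels between genes. Lists of other cell types' markers are written in symbols, which the files do not pair with identifiers, so those cell types were not analysed here. In whole tissue, fewer cells of a type and less RNA per cell cannot be told apart.

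The defining smooth muscle genes were detected at unequal levels. Acta2 had the highest mean of the 8, at 29.1 FPKM over the 9 libraries, which was above 90.4% of listed features. It was followed by Vim at 12.2, Myh11 at 6.02, Pdgfrb at 5.05, Des at 3.18, Pdgfra at 1.79 and Cnn1 at 1.57 FPKM. Tagln was lowest, at 0.278 FPKM, and only 14.5% of features lay below it. Acta2 stood 80.3 to 136 times above Tagln in the same library. The label of smooth muscle genes thus rested on Acta2, Myh11 and Cnn1, of which Cnn1 was itself low, with 39.6% of features below it. Tagln was close to the bottom of the list. Acta2 exceeded Vim, and Vim exceeded Myh11, in 9 of 9 libraries. Neighbours whose order was not the same in every library were Myh11 and Pdgfrb (Myh11 higher in 8 of 9), Des and Pdgfra (Des higher in 8 of 9), and Pdgfra and Cnn1 (Pdgfra higher in 4 of 9).

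**Figure D1:**
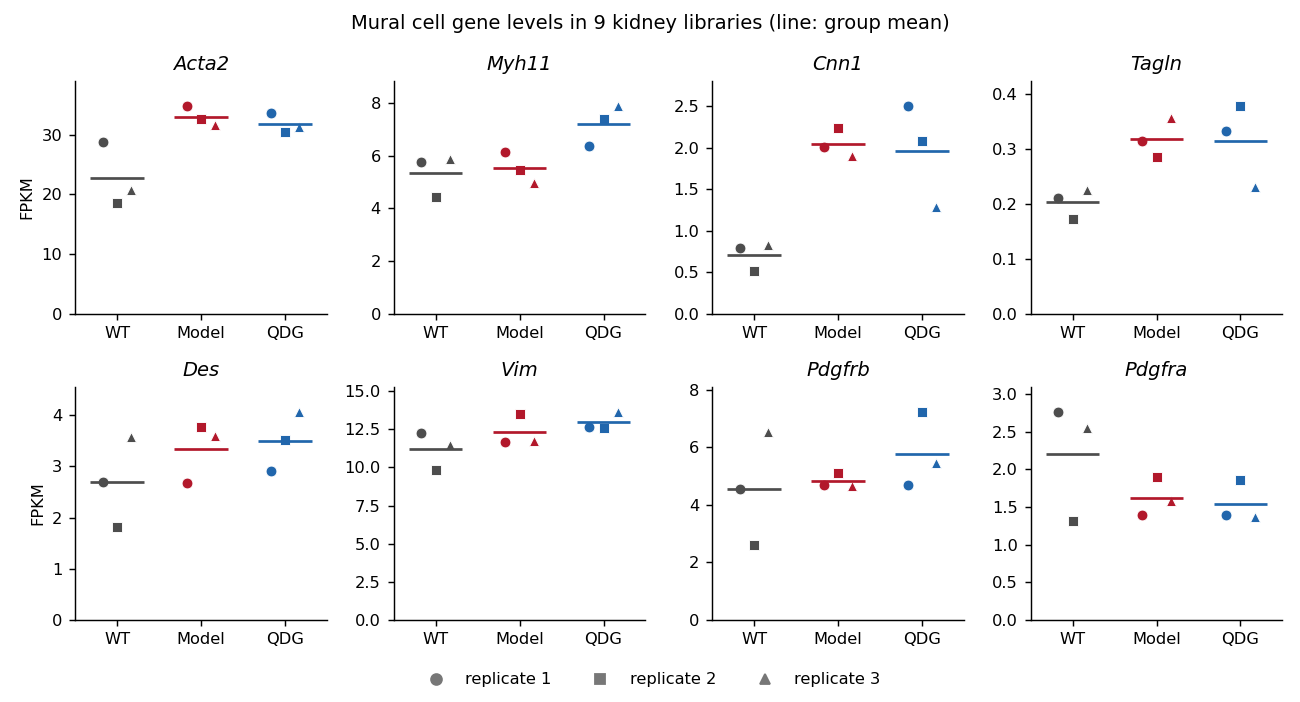
Level of each gene in FPKM (vertical axes, from 0, a separate scale for each gene) in the 3 WT, 3 Model and 3 QDG libraries. Points are libraries, shapes are replicate numbers and lines are group means; Cnn1 lies at 0.514 to 0.826 FPKM in WT and at 1.29 to 2.51 in the other libraries, while Des and Pdgfrb overlap between all groups.

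Of the 7 genes tested, Acta2 and Cnn1 had the largest log2(FPKM + 1) differences between WT and the hypertensive groups, so the sequence just before their start sites is shown. The 150 bases come from RefSeq's rat assembly GRCr8, written 5′ to 3′ on the gene's strand. Capitals mark matches to the CArG box, the site bound by serum response factor, in a form with 1 base off the consensus. A strict box is CC, then only A or T bases, then GG. In the form 1 base off, CC and GG are intact and 1 inner base is G or C. Boxes with a changed CC or GG were not searched for. The Acta2 stretch is chr1:241172504-241172653 on the minus strand and the Cnn1 stretch is chr8:28908287-28908436 on the plus strand.
Acta2: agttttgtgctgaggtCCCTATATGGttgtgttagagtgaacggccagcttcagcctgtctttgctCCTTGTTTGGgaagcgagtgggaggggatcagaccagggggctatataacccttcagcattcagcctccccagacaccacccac
Cnn1: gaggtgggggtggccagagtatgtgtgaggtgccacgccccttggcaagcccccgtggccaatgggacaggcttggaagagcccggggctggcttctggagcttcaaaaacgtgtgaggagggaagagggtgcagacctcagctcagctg
The search covered both strands of the 250 bases before the start. Acta2 held 2 such matches, beginning 134 and 84 bases before the start, and no strict CArG box. A strict CArG box stood in 1.5% of the 33469 promoters of the same length, and a box that was strict or 1 base off stood in 8.08%. Cnn1, Des, Vim and Pdgfra, the other genes with an entry, had neither form in these 250 bases. A match is a description of the letters, and the absence of one says only that they are not in this window.

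One library, WT 2, was low for every gene of the list. It held the lowest of the 9 values for 8 of 8 genes, while it was the lowest library for 17.2% of tested features. Its median deviation from the genes' own means was −0.45 on the log2(FPKM + 1) scale for the 8 genes and 0.01 for tested features. No other library was lowest for any of the 8. The highest value was in QDG 3 for 3 genes, in QDG 2 for 2, and in WT 1, Model 1 and QDG 1 for 1 each. What set WT 2 apart was not tested.

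**Figure D2:**
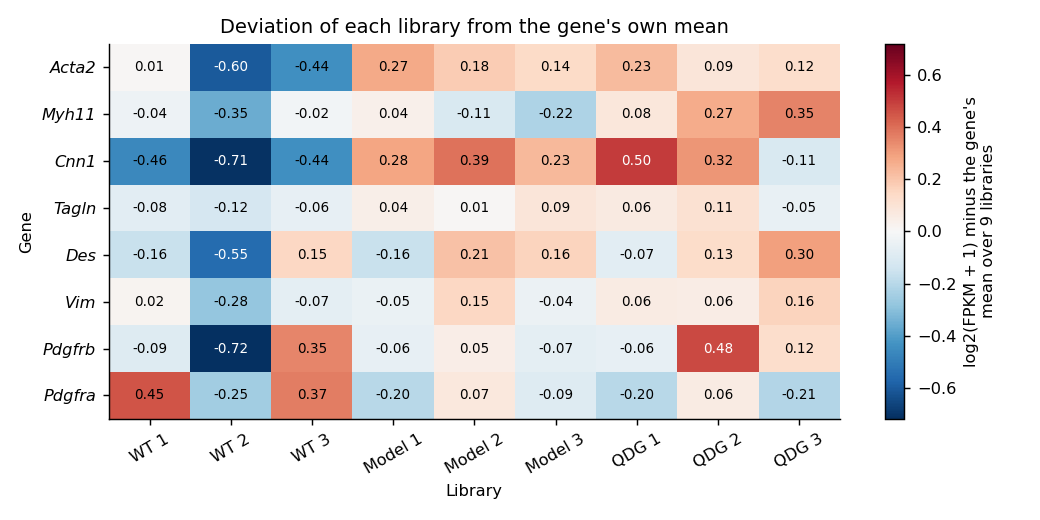
Deviation of each library (columns) from each gene's mean over the 9 libraries (rows), in log2(FPKM + 1), red above and blue below. The WT 2 column is negative for all 8 genes. Tagln, Myh11 and Cnn1 are negative in all 3 WT libraries, and each of these is also negative in QDG 3 or in a Model library.

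Model against WT asks what differs in the hypertensive kidney. Cnn1 was about 2.9 times higher in Model and was the only one of the 8 that passed the test. Acta2 was 1.45 times higher in Model on average and fell just short. Myh11, the myosin that works with both, stood at nearly the same level in the 2 groups. Differences were tested with limma on log2(FPKM + 1) across the 12187 features averaging 1 FPKM or more, of which 7.9% passed an adjusted p under 0.05 (6.01% higher and 1.9% lower in Model). Of the 8 genes, 7 were tested and 1 passed, as higher. Tagln fell below the limit on the mean. Cnn1 passed that limit through its Model and QDG values, since its WT mean was 0.712 FPKM.

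Cnn1 stood at 0.795, 0.514 and 0.826 FPKM in WT libraries 1, 2 and 3. It stood at 2.01, 2.24 and 1.91 FPKM in the Model libraries. All Model values lay above all WT values. Group means were 0.712 ± 0.172 FPKM (SD, n = 3) in WT and 2.05 ± 0.172 in Model, a ratio of 2.88. On the log2(FPKM + 1) scale Cnn1 differed by 0.84, SE 0.16 (limma adjusted p = 0.0179). That scale understates the change of low genes, and a pseudocount of 0.1 in place of 1 gave 1.43 (limma adjusted p = 0.0166). Without the limit on the mean, the call was also made (limma adjusted p = 0.0257). The values rested on 37 to 71 reads per library in WT and 140 to 184 in Model. The call was lost without WT 2 (limma adjusted p = 0.0562) and without Model 3 (limma adjusted p = 0.0515), and it was made in the other 15 of 17 alternatives, over which the limma adjusted p ran from 0.0142 to 0.0562.

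Acta2 stood at 28.8, 18.5 and 20.8 FPKM in WT and at 34.8, 32.6 and 31.5 FPKM in Model. All Model libraries were above all WT libraries, although WT 1 lay nearer to Model than to the other WT libraries. Means were 22.7 ± 5.41 FPKM (SD, n = 3) in WT and 32.97 ± 1.65 in Model. On the log2 scale Acta2 differed by 0.54, SE 0.15, and did not pass (limma adjusted p = 0.0508). It passed without WT 1, where the difference was 0.72 (limma adjusted p = 0.0220). It also passed when only features averaging 5 FPKM or more were tested (limma adjusted p = 0.0380) and with voom on recovered reads (limma adjusted p = 0.0489). With each library's trend by feature length removed it was 0.40 (limma adjusted p = 0.0944). Acta2 thus passed in 3 of the 18 alternatives, over which the limma adjusted p ran from 0.0220 to 0.130.

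Myh11 stood at 5.76, 4.43 and 5.86 FPKM in WT and at 6.12, 5.45 and 4.96 FPKM in Model. The groups overlapped. The log2 difference was 0.04, with an interval before adjustment of −0.24 to 0.32 (95%, limma adjusted p = 0.864), and its sign changed without WT 2 (−0.069) or Model 1 (−0.026).

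Tagln was too thinly covered for its level to be read closely. It stood at 0.211, 0.172 and 0.224 FPKM in WT and at 0.315, 0.285 and 0.356 FPKM in Model. All Model values were above all WT values, but they came from 9 to 14 reads in WT and 17 to 19 in Model. Exact Poisson 95% intervals, which cover counting error only, all held the range from 0.237 FPKM, the lower bound in QDG 2, to 0.327 FPKM, the upper bound in WT 2. The intervals of all libraries thus overlapped, which is not itself a test of a difference between libraries. When all 17862 features were tested, its estimate on the log2 scale was 0.13, SE 0.06 (limma unadjusted p = 0.0382, limma adjusted p = 0.189). In QDG against WT the same fit gave 0.13 (limma unadjusted p = 0.0465, limma adjusted p = 0.267).

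The intermediate filament genes did not pass. Des stood at 2.69, 1.81 and 3.58 FPKM in WT and at 2.69, 3.76 and 3.60 FPKM in Model, with overlap between the groups. Des differed by a log2 of 0.25, SE 0.18 (limma adjusted p = 0.379). Vim, the second most abundant of the 8, stood at 12.3, 9.82 and 11.5 FPKM in WT and at 11.7, 13.5 and 11.7 FPKM in Model. These groups overlapped too, with a log2 difference of 0.13, SE 0.11 (limma adjusted p = 0.461).

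The PDGF receptors did not pass either, and WT was the uneven group for both. Pdgfrb stood at 4.54, 2.60 and 6.53 FPKM in WT and at 4.68, 5.12 and 4.64 FPKM in Model. The WT values spread over a coefficient of variation of 43.2%, against 5.6% in Model, and enclosed all Model values. Pdgfrb differed by a log2 of 0.13, SE 0.23 (limma adjusted p = 0.749), and by −0.15 without WT 2. Pdgfra, the fibroblast receptor, was the only tested gene of the 8 with a negative difference. It stood at 2.76, 1.31 and 2.54 FPKM in WT and at 1.39, 1.89 and 1.57 FPKM in Model. WT 1 and WT 3 were above every Model library and WT 2 below every one. Pdgfra differed by a log2 of −0.26, SE 0.18 (limma adjusted p = 0.359), and by −0.48 without WT 2 (limma adjusted p = 0.0792, in a range of 0.0792 to 0.688 over 17 alternatives).

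**Figure D3:**
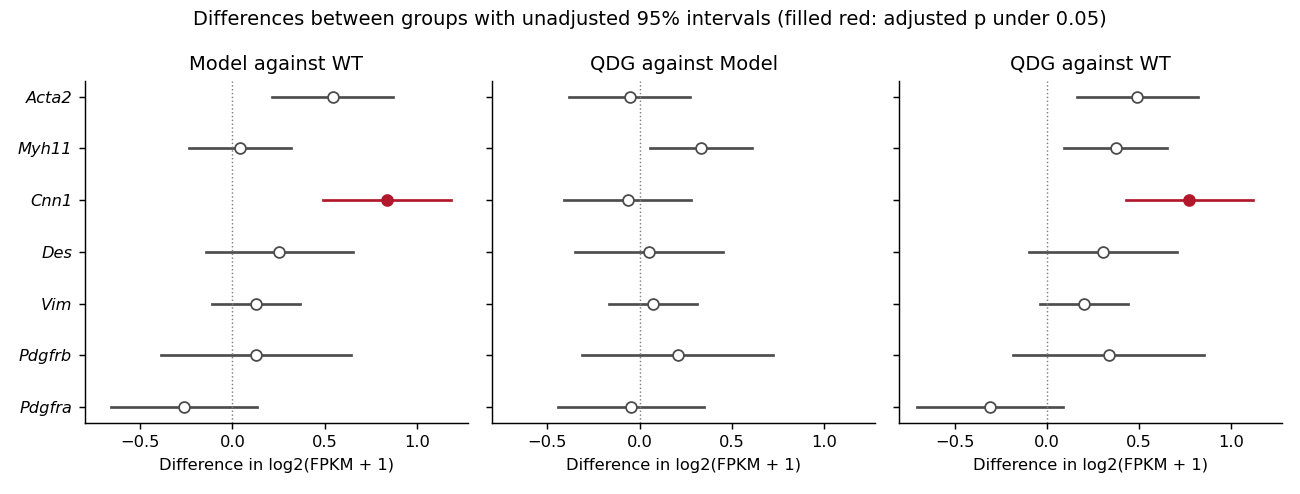
Differences in log2(FPKM + 1) between groups (horizontal axes) for the 7 tested genes, with limma estimates as points and 95% intervals before adjustment as lines. Cnn1, filled red, passed an adjusted p under 0.05 in both comparisons with WT (0.84 and 0.77) and no gene passed in QDG against Model.

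Over the 7 tested genes the median log2 difference of Model against WT was 0.13, beside 0.02 over all tested features. Without WT 2 these medians were 0.045 and 0.035. All 3 Model values lay above all 3 WT values for 2 of the 7 tested genes (Acta2 and Cnn1) and below them for 0, while 28.2% of tested features did not overlap between these groups (17.3% with Model above, 10.9% below).

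QDG against Model asks what differs with the granule in the hypertensive kidney. Cnn1 and Acta2 stood at similar levels in treated and untreated hypertensive kidneys. Myh11 was 1.31 times higher on average with the granule, without passing the test. Of the 7 tested genes 0 passed, and of all tested features 0% passed (limma, with 1695 at an unadjusted p under 0.05, and 0 with voom on recovered reads).

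Cnn1 stood at 2.51, 2.09 and 1.29 FPKM in QDG. QDG 1 was above every Model library and QDG 3 below every one, with QDG 2 inside the Model range. Its log2 difference from Model was −0.06, with an interval before adjustment of −0.41 to 0.28 (95%, limma adjusted p = 0.871). The sign was positive without QDG 3 (0.11) and with the length trend removed (0.02). Acta2 stood at 33.7, 30.4 and 31.2 FPKM in QDG and overlapped Model. Its log2 difference was −0.05, with an interval of −0.38 to 0.28 (limma adjusted p = 0.890), and it was 0.05 after quantile normalization and 0.07 with the length trend removed. These intervals do not show that the groups were alike. Neither interval reaches the size of the same gene's estimate in Model against WT, 0.84 for Cnn1 and 0.54 for Acta2. The Acta2 estimate there did not pass.

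Myh11 stood at 6.35, 7.37 and 7.88 FPKM in QDG. All QDG libraries lay above all Model libraries, whose highest value was 6.12. Means were 5.51 ± 0.583 FPKM (SD, n = 3) in Model and 7.20 ± 0.779 in QDG, with a log2 difference of 0.33, SE 0.13. The unadjusted p was 0.0233 by limma, and the limma adjusted p = 0.312. The sign was the same in 18 of 18 alternatives and the adjusted threshold was passed in 0 of them. It was the only one of the 7 tested genes whose groups did not overlap here, while 26.7% of tested features did not overlap (10.4% with QDG above, 16.3% below).

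The other genes overlapped between QDG and Model. Des stood at 2.92, 3.51 and 4.06 FPKM in QDG, Vim at 12.7, 12.6 and 13.6 FPKM, and Pdgfra at 1.39, 1.86 and 1.37 FPKM. Pdgfrb stood at 4.68, 7.23 and 5.45 FPKM, with QDG 2 the highest of the 9 libraries. Their log2 differences ran from −0.05 for Pdgfra to 0.21 for Pdgfrb (limma adjusted p between 0.710 and 0.926). Without QDG 2 the Pdgfrb difference was 0.058. Tagln stood at 0.333, 0.378 and 0.231 FPKM from 13 to 22 reads.

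QDG against WT sets the treated hypertensive kidney beside the normal one. It shares the WT libraries with the comparison of Model and WT, so their results are not independent. Cnn1 was again the only one of the 7 tested genes that passed, 2.75 times higher in QDG, while 2.47% of all tested features passed (1.63% higher and 0.837% lower in QDG). Its means were 0.712 FPKM in WT and 1.96 ± 0.617 (SD, n = 3) in QDG, a log2 difference of 0.77, SE 0.16 (limma adjusted p = 0.0336). Without the limit on the mean, which Cnn1 passed through its Model and QDG values, the call was also made (limma adjusted p = 0.0491). The call was made in 12 of 17 alternatives, with a limma adjusted p from 0.0299 to 0.136. Among the fits that left out 1 library, it was lost without WT 1 (limma adjusted p = 0.0880), WT 2 (0.0742), QDG 1 (0.133) or QDG 2 (0.136). Acta2 differed by a log2 of 0.49, SE 0.15, without passing (limma adjusted p = 0.102), and passed without WT 1 (limma adjusted p = 0.0429, in a range of 0.0429 to 0.288 over 18 alternatives).

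Myh11 was 1.35 times higher in QDG than in WT, a log2 difference of 0.37, SE 0.12 (limma adjusted p = 0.129). Vim differed by 0.20, SE 0.11 (limma adjusted p = 0.311). All QDG values lay above all WT values for Acta2, Myh11, Cnn1 and Vim, 4 of the 7 tested genes, whereas 27.7% of tested features did not overlap (15.2% with QDG above, 12.5% below). Des (0.30), Pdgfrb (0.34) and Pdgfra (−0.31) overlapped and did not pass (limma adjusted p = 0.361, 0.431 and 0.347). The median log2 difference over the 7 tested genes was 0.34, beside −0.001 over all tested features, and 0.12 beside 0.009 without WT 2.

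Without WT 2, the log2 difference of Model against WT was 0.75 for Cnn1 in place of 0.84, 0.41 for Acta2 in place of 0.54, and 0.07 for Des in place of 0.25. It was 0.045 for Vim in place of 0.13. In QDG against WT without WT 2, it was 0.69 for Cnn1 in place of 0.77, 0.36 for Acta2 in place of 0.49 and 0.26 for Myh11 in place of 0.37. There it was 0.12 for Des in place of 0.30, 0.12 for Vim in place of 0.20 and 0.053 for Pdgfrb in place of 0.34. Pdgfra moved away from 0, to −0.53 in place of −0.31 (limma adjusted p = 0.0715, in a range of 0.0715 to 0.686 over 17 alternatives). None of the 7 tested genes passed in either comparison with WT without WT 2 (limma), and the signs of Cnn1, Acta2, Des and Vim were the same as with it.

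A ratio of 2 genes within a library does not move with that library's scaling. Relative to Pdgfrb, Cnn1 was at 0.175, 0.198 and 0.126 in WT and at 0.429, 0.438 and 0.411 in Model. It was at 0.536, 0.288 and 0.237 in QDG. WT 2 was the highest of the WT libraries on this ratio, and all WT libraries lay below all libraries of the other groups. Pdgfrb was itself lowest in WT 2 (2.60 FPKM), so the ratio cannot show how far the Cnn1 difference rested on that library. Acta2 relative to Pdgfrb did not separate the groups, at 3.18 to 7.12 in WT, 6.36 to 7.44 in Model and 4.20 to 7.20 in QDG. The ratios of Tagln, Myh11, Des and Vim to Pdgfrb also overlapped between WT and each of the other groups. For Myh11 the ratio was 0.897 to 1.71 in WT, 1.06 to 1.31 in Model and 1.02 to 1.45 in QDG. How often ratios of other features separate these groups was not counted. Pdgfra relative to Pdgfrb was at 0.389 to 0.608 in WT, above every Model library (0.298 to 0.369) and every QDG library (0.252 to 0.298). Cnn1 was below Pdgfra in 3 of 3 WT libraries, above it in 3 of 3 Model libraries, and above it in QDG 1 and QDG 2.

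The contractile genes did not keep fixed proportions to Myh11, a pair of ratios chosen after the values were seen. Acta2 stood at 3.55 to 5.0 times Myh11 in WT, 5.68 to 6.36 times in Model and 3.96 to 5.30 times in QDG, so that Model lay above both other groups without overlap. Cnn1 relative to Myh11 was at 0.116 to 0.141 in WT, 0.328 to 0.411 in Model and 0.164 to 0.394 in QDG. No test was attached to these ratios, and the share of other ratios that separate Model from both other groups was not counted. Neither Acta2 nor Myh11 passed in QDG against Model (limma adjusted p = 0.890 and 0.312).

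**Figure D4:**
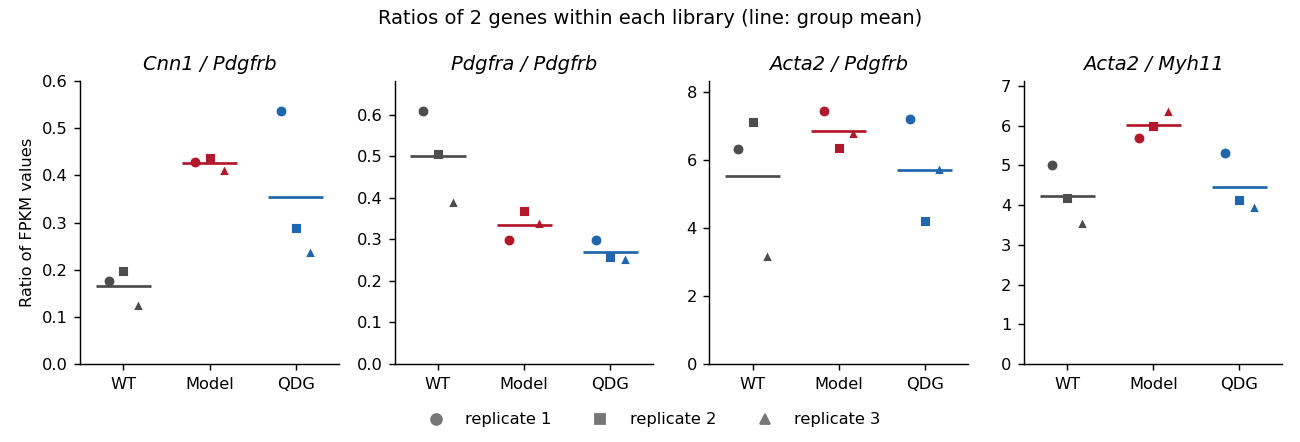
Ratios of FPKM values of 2 genes within each library (vertical axes, from 0), with points as libraries, shapes as replicate numbers and lines as group means. The Cnn1 to Pdgfrb ratio is 0.126 to 0.198 in WT and 0.237 to 0.536 elsewhere, while the Acta2 to Pdgfrb ratio overlaps between groups.

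Among features outside the list, the 2 whose pattern was most like the mean of Acta2, Tagln, Myh11 and Cnn1 were ENSMUSG00000021760 and ENSMUSG00000037206. Likeness was measured over the 9 libraries as the root mean square difference of centred log2(FPKM + 1) values, which was 0.06 and 0.07 for them and 0.28 for the median feature. ENSMUSG00000021760 averaged 9.36 FPKM (WT), 12.7 (Model) and 12.8 (QDG), and ENSMUSG00000037206 had 1.26, 1.96 and 2.02. From the same mean pattern, its own parts differed by 0.12 (Acta2), 0.155 (Tagln), 0.19 (Myh11) and 0.23 (Cnn1). Outside that mean, Vim differed from it by 0.145, Des by 0.22, Pdgfrb by 0.27 and Pdgfra by 0.36, so that Vim and Des lay nearer to it than Cnn1. Values were not scaled to each gene's spread, so this measure holds both the size and the shape of a pattern.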

How the data were processed

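RNA was extracted with Trizol, ribosomal RNA was depleted and libraries were built with an NEB kit, per the labels' protocols. The authors deposited 1 FPKM value per feature and sample. The unit was inferred from the values, which move in steps of whole reads divided by length and library total. Whole reads were recovered for 17854 of 17862 features (99.96%, within 0.0001 read or a relative 2e-07), which also gave lengths and totals. The submitters' processing notes name limma, while the aligner, counter, genome build and annotation are not stated in those sources. One limma model (version 3.58.1, R 4.3.3) with an intensity trend was fitted to log2(FPKM + 1) in all 9 libraries, over the 12187 features averaging 1 FPKM or more. P-values were two-sided and adjusted by the Benjamini-Hochberg method over all of them. The procedure was tested on simulated data. All 8 genes are named whatever their test gave, and other features only by likeness to the contractile genes. The genes and lists were chosen with earlier results of these data known. Lists of other markers could not be matched to identifiers. The 18 alternative fits covered pseudocount, limit on the mean, scaling, length trend, voom, groups fitted, replicate block and leaving out each library, and counts of calls were also taken with an added 2-fold limit.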

Additional observations from a re-analysis of the deposited data

How the results depend on the processing

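Model against WT called 963 features (732 higher, 231 lower). Fitting only WT and Model gave 144, the replicate block 533 and an added 2-fold limit 121. Leaving out single libraries gave 195 (without Model 3) to 1529 (without WT 3). The share of higher calls moved from 76.0% to 60.4% after quantile normalization (431 higher, 283 lower), 62.5% with the length trend removed (474 and 285) and 61.0% with voom on recovered reads (674 and 431). For QDG against Model the number was 0, it was 1 in the fit of just these groups, and it ran from 0 to 3 (without Model 1) over single libraries left out. For QDG against WT it was 301. Quantile normalization gave 515, removal of the length trend 520, the fit of just these groups 486, the replicate block 154 and an added 2-fold limit 76, and single libraries left out gave 39 (without QDG 2) to 775 (without WT 3).

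Of 369 alternative values for the 7 tested genes, 347 kept their sign and their side of the threshold. The sign differed in 11, all of differences that did not pass. In Model against WT, leaving out single libraries moved Myh11 from −0.069 (without WT 2) to 0.10 and Pdgfrb from −0.15 (without WT 2) to 0.38. In QDG against Model, Acta2 was 0.046 after quantile normalization and 0.071 with the length trend removed, and Cnn1 was 0.021 with the length trend removed. There, leaving out single libraries moved Cnn1 from −0.20 to 0.11 (without QDG 3), Des from −0.066 (without Model 1) to 0.14 and Pdgfra from −0.13 to 0.028 (without Model 2). Without 1 library, Cnn1 ran from 0.75 to 0.89 in Model against WT and from 0.64 to 0.95 in QDG against WT. The causes were not tested.

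Replicate numbers are shared by the groups, but nothing ties same-numbered samples to 1 animal or batch. Their deviations from the group means correlated across features between −0.33 and 0.14 over 9 pairs, and 1 of 9 libraries correlated best with its own number, so the block is only an alternative. With the replicate block, Cnn1 in QDG against WT did not pass (0.77, limma adjusted p = 0.0624), and no other call among these genes changed. Genes with means under 5 FPKM had no value under that limit. Depth limits Tagln most, with 9 to 22 reads per library.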
